A study of Homo sapiens with 4 samples.

Results

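The Notch genes described here are 3 receptors (NOTCH1, NOTCH2 and NOTCH3), 3 ligands (JAG1, JAG2 and DLL1) and 4 target genes (HES1, HES4, HEY1 and NRARP). They were taken by gene name from the count and FPKM tables of AGS cells, an established human gastric adenocarcinoma line, and all 10 were found among 51103 genes. Polyadenylated RNA was sequenced from AGS cells given human recombinant FGF2 (fibroblast growth factor 2) at 20 ng/mL and harvested after 24 h, with 2 libraries, and from AGS cells labelled NC, with 2 libraries. The labels do not spell out NC, and the treatment text on the NC libraries also names FGF2, so no source used here says what these control cells were given. Both groups are the same cell line, grown in DMEM with serum, and nothing in the labels ties a library to a culture of its own.

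Notch receptors are membrane proteins that are activated by Jagged and Delta-like ligands on neighbouring cells. Ligand binding lets an ADAM protease and then gamma-secretase cut the receptor, and the freed intracellular part enters the nucleus, where it joins the DNA-binding protein RBPJ and a Mastermind-like coactivator at genes such as those of the HES and HEY repressors. In the gut epithelium the pathway is known for holding progenitor cells back from secretory differentiation, largely through HES1. NRARP is a small ankyrin-repeat protein that feeds back on the receptor's intracellular part, and FGF2 itself acts through FGF receptors and the ERK cascade.

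RBPJ binds the bases GTGGGAA, so the promoters of the 3 target genes with the most counts are shown with every match to the core TGGGAA, on either strand, in capitals. Each line runs 5′ to 3′ along the gene's own strand, from 250 to 61 bases before the RefSeq start (RefSeq promoter table, GRCh38.p14).
HES1: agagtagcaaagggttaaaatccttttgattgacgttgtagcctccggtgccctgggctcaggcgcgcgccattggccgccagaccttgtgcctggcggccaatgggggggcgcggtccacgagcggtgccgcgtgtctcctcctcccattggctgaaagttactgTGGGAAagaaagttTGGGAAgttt
HES4: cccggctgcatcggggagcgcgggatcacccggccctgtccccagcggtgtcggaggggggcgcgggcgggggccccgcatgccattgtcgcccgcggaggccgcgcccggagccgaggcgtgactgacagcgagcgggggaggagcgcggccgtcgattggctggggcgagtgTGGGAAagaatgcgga
NRARP: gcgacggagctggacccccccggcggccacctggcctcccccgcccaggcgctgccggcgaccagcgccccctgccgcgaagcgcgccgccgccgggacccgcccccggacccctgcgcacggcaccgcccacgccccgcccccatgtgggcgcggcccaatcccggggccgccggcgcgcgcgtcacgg
These stretches are chr3:194135898-194136087 on the plus strand for HES1, chr1:1000158-1000347 on the minus strand for HES4 and chr9:137302332-137302521 on the minus strand for NRARP. The last bases printed for HES4 lie inside the HES4 gene as GENCODE draws it.

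The HES1 promoter held GTGGGAA at bases 85 to 79 before the start and a further TGGGAA at bases 70 to 65, while HES4 held 1 GTGGGAA at bases 77 to 71. Of the 10 genes, 8 were in the promoter table, and DLL1 and HEY1 were not. Over the 250 bases before the start, HES1 and HES4 were the 2 of 8 with GTGGGAA, which 5.43% of 35116 promoter windows held, and the same pair were the 2 with TGGGAA, which 20.8% held and which lies within the longer site. Among sites that HES and HEY proteins are known to bind, CACGCG was found in HES1 and JAG2 (9.72% of windows), CACNAG in HES1 and NOTCH3 (32% of windows), and CACGTG in 0 of the 8 (6.34% of windows), again on both strands. GC content over those 250 bases was 59.2% in HES1, 74.8% in HES4 and 78.4% in NRARP, against a median of 58% over all windows. These matches describe the letters only.

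The total per library was between 13790335 and 14073340 counts for the libraries numbered 1 and between 27325697 and 27598608 for those numbered 2. Within a group, library 1 had the higher count at only 2 genes of 22043 for FGF2 and 2 of 22485 for NC, where the binomial expectation for separate libraries of these depths is 1192 and 1214, and the chi-square per gene between them was 0.856 and 0.807 at 10 to 1000 counts, less than sampling noise. The pair of each group was therefore counted as 1 sample (n = 1 per group), and no p-value is given. FPKM (read counts divided by exon length and library total) is quoted for library 1 and then library 2, which are not independent. Fold changes compare the libraries 2 after TMM scaling, with a 95% Clopper-Pearson interval that covers counting error only and is too narrow, since the chi-square per gene between library 1 and the reads of library 2 beyond it was 2.54 for FGF2 and 2.50 for NC. These remaining reads of library 2 and the reads of library 1 are the 2 read sets of a group. A gene is called higher or lower when both read sets in FGF2 lay at least 1.2-fold beyond both in NC. As a check of the treatment label, 6 of 6 known FGF and ERK response genes (DUSP6, SPRY2, SPRY4, ETV4, ETV5 and FOSL1) were higher. Their log2 fold changes were 1.34 to 3.51, and 12.1% of all 15030 genes tested were higher. The value of 3.51 is that of DUSP6, and AC024909.2, read from the other strand, covers 40.5% of the DUSP6 exons. The kit is not stranded, so reads from that stretch cannot be assigned to DUSP6 alone. The list was chosen with earlier results of these data known, so this check was not a blind one. Of 8 epithelial markers, KRT8 stood at 193.6 and 190.6 FPKM in FGF2 and 264.9 and 270.3 FPKM in NC. KRT18 stood at 193.0 to 201.2 FPKM, EPCAM at no more than 1.19 FPKM and CDH1 at no more than 20 counts. Of the 7 that passed edgeR's filter, 3 were lower (KRT8, EPCAM and ELF3) and 1 higher (KRT19), beside 16.3% and 12.1% of 15030 genes. ELF3 had 33 counts in FGF2 library 2 and 354 in NC library 2. Of 6 gastric markers TFF1, GKN1 and PGC were at 0 counts in all 4 libraries. Only 1 of the 6, MUC6, passed the filter, and it was higher, at 39 against 8 counts in the libraries 2, beside 12.1% of genes. MUC5AC and TFF2, which did not pass, had 4 against 13 and 0 against 3 counts.

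The FGF2 sample had lower transcript levels of the receptor gene NOTCH3 and of the target gene HES4, while NOTCH1, NOTCH2, the ligands JAG1 and JAG2 and the targets HES1 and NRARP did not differ enough to be called by that rule. NOTCH3 stood 1.99-fold lower and HES4 1.54-fold lower in FGF2. Of the 9 Notch genes with enough counts to pass edgeR's filter, 2 were called lower, where 16.3% of 15030 genes were, and 0 were called higher, where 12.1% were, so the counts lie near those of genes at large. At a bound of 1.5-fold, 1 was lower (NOTCH3) against 7.90% of genes and 0 were higher against 3.90%. The median log2 fold change was 0.02 over the 9 genes and 0.00 over all genes tested. DLL1 did not pass the filter.

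**Figure D1:**
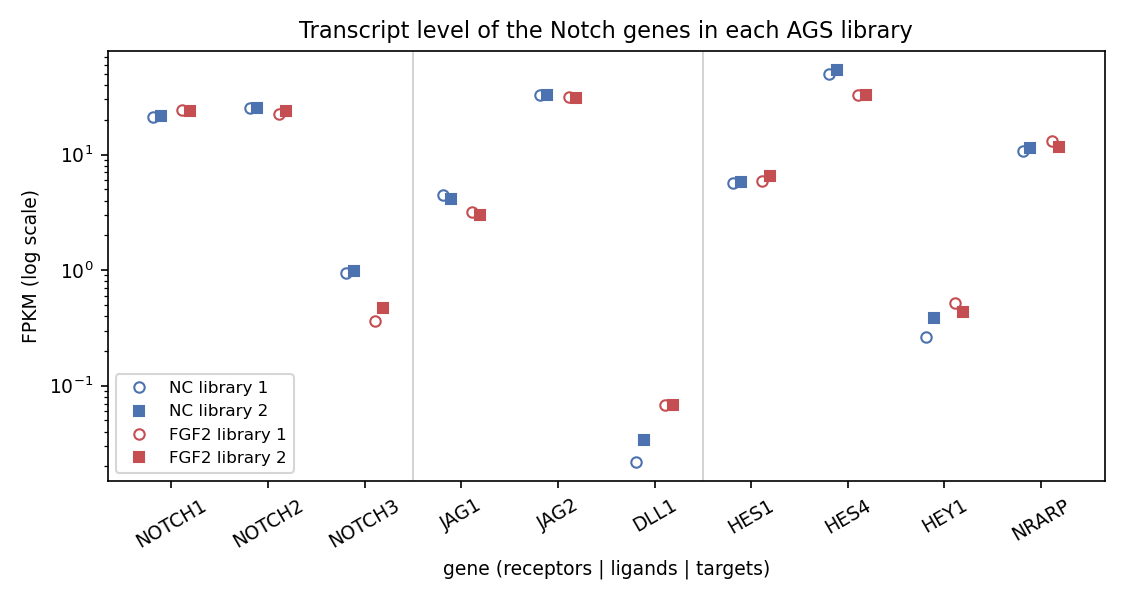
Transcript level of the 10 Notch genes in each of the 4 AGS libraries, in FPKM on a log axis, with NC in blue and FGF2 in red, library 1 as open circles and library 2 as filled squares. NOTCH3 and HES4 sit lower in both FGF2 libraries than in both NC libraries, at 0.363 and 0.467 against 0.938 and 0.989 FPKM for NOTCH3.

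NOTCH1 encodes a receptor that acts in many epithelial progenitors (ENSG00000148400, GRCh38 chromosome 9, 136494433 to 136545786, GENCODE v29). Its level was 24.1 and 24.0 FPKM in the FGF2 libraries and 21.0 and 21.4 FPKM in the NC libraries. Both FGF2 values were above both NC values, and the read sets did not overlap, as held in the higher direction for 32.1% of genes. The log2 fold change was 0.25 (0.20 to 0.30), short of the 1.2-fold rule.

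NOTCH2, its widely expressed relative (ENSG00000134250, chromosome 1, 119911553 to 120069626), stood at 22.6 and 23.7 FPKM in FGF2 and 25.4 and 25.3 FPKM in NC. The read sets of the groups overlapped after scaling, with a log2 fold change of -0.01 (-0.05 to 0.03). NOTCH2 has a near-identical partial copy, NOTCH2NLA, which held 21 and 34 counts in the libraries 2, and how reads common to the pair were assigned was not tested. In NC, NOTCH1 stood below NOTCH2 in both libraries, at 0.828 and 0.847 of its FPKM, whereas in FGF2 the ratio was 1.07 and 1.01. In FGF2 library 2 their counting intervals overlapped, at 23.4 to 24.5 FPKM for NOTCH1 and 23.2 to 24.1 FPKM for NOTCH2.

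NOTCH3, the receptor best known from vascular smooth muscle and pericytes (ENSG00000074181, chromosome 19, 15159038 to 15200981), was the scarcest of the 3 receptors measured here. Its level was 0.363 and 0.467 FPKM in FGF2 against 0.938 and 0.989 FPKM in NC, from 47 and 121 counts against 124 and 254. Both FGF2 libraries were under both NC libraries without overlap. The log2 fold change was -0.99 (-1.32 to -0.68), and library 1 alone gave -1.27 and the remaining reads -0.79, and 1076 of the 15030 genes had a lower value. NOTCH3 made up 0.771% and 0.970% of the summed FPKM of the 3 receptors in FGF2 and 1.98% and 2.07% in NC, while that sum was 47.1 and 48.1 FPKM in FGF2 and 47.3 and 47.7 FPKM in NC. The NOTCH3 difference thus hardly touched the summed receptor level.

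Some genes often used as fibroblast markers were lower along with NOTCH3. Of a list of 10, 4 passed the filter, of which 3 were lower (PDGFRB, COL1A1 and COL3A1) and 0 higher, beside 16.3% and 12.1% of all genes tested. THY1 stood at 0.02 on the log2 scale. The summed level of the list was 83.8 to 84.3 FPKM in FGF2 and 141.4 to 144.6 FPKM in NC, mostly COL1A1, which stood at 59.4 FPKM in FGF2 library 2 and 103.8 FPKM in NC library 2. On the same list COL1A2 and FAP were at 0 counts in all 4 libraries. DCN, LUM, PDGFRA and POSTN had at most 8, 12, 3 and 2 counts in any library. Of 6 endothelial markers, KDR and TEK were at 0 and the list summed to 0.309 to 0.396 FPKM in FGF2 and 0.330 to 0.402 FPKM in NC. Among blood and immune markers, CD3E, CD68 and LYZ were at 0. The list summed to 0.384 to 0.884 FPKM in FGF2 and 1.02 to 1.07 FPKM in NC. Nearly all of that was CD14, at 10 and 46 counts in FGF2 and 28 and 52 in NC. CD14 was not called, at -0.10 (-0.71 to 0.50) on the log2 scale. AC016876.2, on the same strand, covers 81.7% of the CD68 exons, and an opposite-strand gene covers 34.0% of those of LYZ. How reads common to these genes were assigned was not tested. In bulk RNA, fewer cells with a transcript and less of it per cell cannot be told apart.

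**Figure D2:**
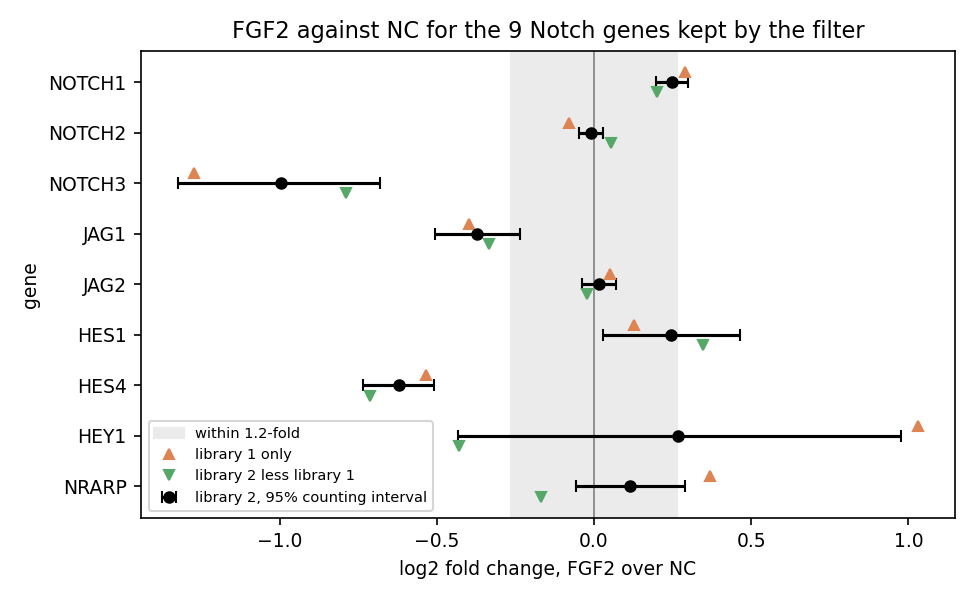
Log2 fold change of FGF2 over NC for the 9 Notch genes that passed the filter, with 95% counting intervals for the libraries 2 (black) and the values from library 1 alone (orange) and from library 2 less library 1 (green); the grey band marks 1.2-fold. NOTCH3 and HES4 lie left of the band in both read sets, and HEY1 and NRARP have read sets on opposite sides of 0.

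JAG2, a Jagged ligand (ENSG00000184916, chromosome 14, 105140981 to 105168824), supplied most transcript of the 3 ligands described here. It stood at 31.6 and 31.0 FPKM in FGF2 and 32.4 and 32.5 FPKM in NC, which is 90.7% and 91.0% of the summed FPKM of the 3 ligands in FGF2 and 87.9% and 88.7% in NC. Its log2 fold change was 0.02 (-0.04 to 0.07), its read sets overlapped, and with scaling by the total count alone the value was -0.07. Another gene on that strand overlaps 7.33% of the JAG2 exons.

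JAG1, the other Jagged ligand (ENSG00000101384, chromosome 20, 10637684 to 10673999), was lower in level than JAG2 in every library. It stood at 3.16 and 3.005 FPKM in FGF2 and at 4.43 and 4.12 FPKM in NC. Its read sets did not overlap, as held in the lower direction for 32.0% of genes, but their nearest values lay 1.12-fold apart, short of the rule. The log2 fold change was -0.37 (-0.51 to -0.24). The ratio of JAG2 to JAG1 in FPKM was 10.0 and 10.3 in FGF2 and 7.32 and 7.88 in NC. JAG1 was called lower under 10 of 16 alternatives, among them scaling by the total count alone and leaving out NC library 1 or NC library 2.

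DLL1, a Delta-like ligand (ENSG00000198719, chromosome 6, 170282206 to 170306565), was barely detected. It had 3 and 6 counts in FGF2 and 1 and 3 counts in NC, so no difference was detectable at this depth.

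HES4, a bHLH repressor of the HES family (ENSG00000188290, chromosome 1, 998962 to 1000172), was the most abundant of the 4 targets per length. Its level was 32.5 and 32.8 FPKM in FGF2 and 50.1 and 53.5 FPKM in NC, from 501 and 1011 counts against 788 and 1635. Both FGF2 libraries lay below both NC libraries, and the nearest read sets were 1.44-fold apart. The log2 fold change was -0.62 (-0.74 to -0.51), and library 1 alone gave -0.53 and the remaining reads -0.71, and 2080 of the 15030 genes had a lower value.

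HES1, the repressor through which Notch acts in gut progenitors (ENSG00000114315, chromosome 3, 194136145 to 194138732), was not called in either direction. It stood at 5.87 and 6.48 FPKM in FGF2 and 5.72 and 5.80 FPKM in NC. Its read sets did not overlap but lay close, and the log2 fold change of 0.25 (0.03 to 0.47) was short of the rule, while library 1 alone gave 0.13 and the remaining reads 0.35. HES4 thus stood at 5.53 and 5.05 times the FPKM of HES1 in FGF2 and at 8.76 and 9.22 times in NC. Both genes carry the GTGGGAA site shown above. HES4 was called lower and HES1 was not called, and what the site does in these cells was not tested.

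NRARP (ENSG00000198435, chromosome 9, 137300482 to 137302251) stood at 13.1 and 11.6 FPKM in FGF2 and 10.8 and 11.3 FPKM in NC. Its log2 fold change was 0.12 (-0.06 to 0.29), but library 1 alone gave 0.37 and the remaining reads -0.17, so its direction could not be read. HEY1, a HES-related repressor (ENSG00000164683, chromosome 8, 79764010 to 79767863), had 23 and 39 counts in FGF2 and 12 and 34 in NC. Its log2 fold change of 0.27 had an interval of -0.43 to 0.98. The HEY1 read sets gave 1.03 and -0.43, and without NC library 2 the value was 0.77 and was called higher, so this gene gave no direction either. The summed FPKM of the 4 targets was 52.0 and 51.3 in FGF2 and 66.8 and 71.0 in NC, and HES4 held 62.5% and 63.9% of it in FGF2 and 74.9% and 75.3% in NC.

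**Figure D3:**
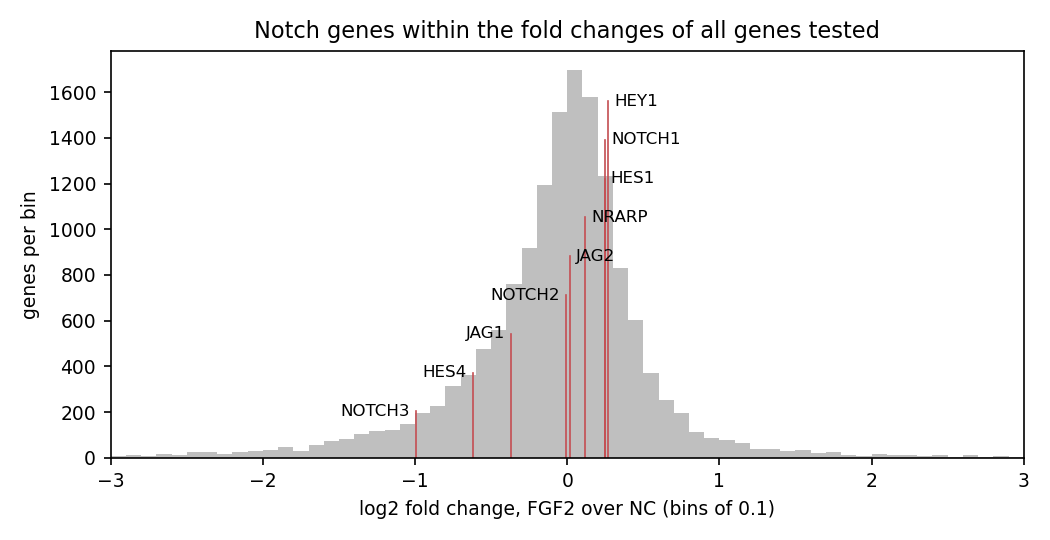
Number of genes per bin of log2 fold change (FGF2 over NC, bins of 0.1) for the 15030 genes tested, with red lines at the 9 Notch genes; line heights only separate the names. NOTCH3 at -0.99 has 1076 genes below it and HES4 at -0.62 has 2080, and the other 7 lie between -0.37 and 0.27.

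By level in NC library 2 the order was HES4, JAG2, NOTCH2, NOTCH1, NRARP, HES1, JAG1, NOTCH3, HEY1 and DLL1 in FPKM. HES4 exceeded 94.9% of the genes tested there and NOTCH3 24.2%. In FGF2 library 2 the order of the 10 genes was the same except that NOTCH1 stood above NOTCH2. HES4 and JAG2, apart in NC, had overlapping counting intervals there, at 30.8 to 34.8 and 30.2 to 31.8 FPKM, as did NOTCH3 and HEY1, at 0.387 to 0.558 and 0.311 to 0.598 FPKM. Apart from these pairs and NOTCH1 with NOTCH2 in FGF2, the intervals of neighbours in either order did not overlap. The intervals do not cover the exon lengths used. In FGF2 library 2 NOTCH2 had more counts than NOTCH1, at 10982 against 6861.

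The rest of the pathway was read from 66 further genes, of which 55 passed the filter. Of these, 5 were called higher and 11 lower, or 39 neither, beside 12.1% and 16.3% of all genes tested, with a median log2 fold change of -0.04. The counts by role given below are to be set beside the same shares, and each role holds few genes. Most genes of the machinery that cuts the receptor differed little. The protease genes ADAM10 and ADAM17 stood at -0.04 (-0.11 to 0.03) and -0.08 (-0.19 to 0.03), and among gamma-secretase subunits PSEN2 was at -0.16, NCSTN at -0.17, APH1A at -0.06 and PSENEN at 0.24. FURIN, which makes the first cut of the receptor precursor, was higher at 24.8 and 24.9 FPKM against 19.4 and 20.1 FPKM (log2 fold change 0.40, 0.32 to 0.47). APH1B, an alternative gamma-secretase subunit, was lower at 0.396 and 0.481 FPKM against 1.23 and 1.31 FPKM (-1.35, -1.77 to -0.97). PSENEN, APH1A and ADAM17 share 41.0%, 14.1% and 13.6% of exon sequence with genes on the opposite strand, which this unstranded kit cannot tell apart.

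Among 6 genes of receptor glycosylation, 1 was lower and 0 higher. This was LFNG (Lunatic fringe), which adds sugars to the receptor that shift its response between Delta-like and Jagged ligands. It stood at 3.29 and 3.10 FPKM in FGF2 and 6.78 and 6.08 FPKM in NC, without overlap, a log2 fold change of -0.89 (-1.10 to -0.68). In the nuclear complex RBPJ was at 8.02 and 8.38 FPKM against 7.90 and 7.48 FPKM (0.25, 0.16 to 0.34) and MAML1 at -0.09 (-0.15 to -0.02), neither called. MAML2, another Mastermind-like coactivator, was lower at -0.75 (-0.94 to -0.56), as was the acetyltransferase gene KAT2B at -0.67 (-0.90 to -0.45), making 2 of 8 lower and 0 higher. Of 9 corepressor genes 2 were higher and 1 lower. TLE3 was at 0.60 (0.50 to 0.70) and TLE4, another Groucho-family partner of the HES proteins, at -0.47 (-0.54 to -0.40).

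**Figure D4:**
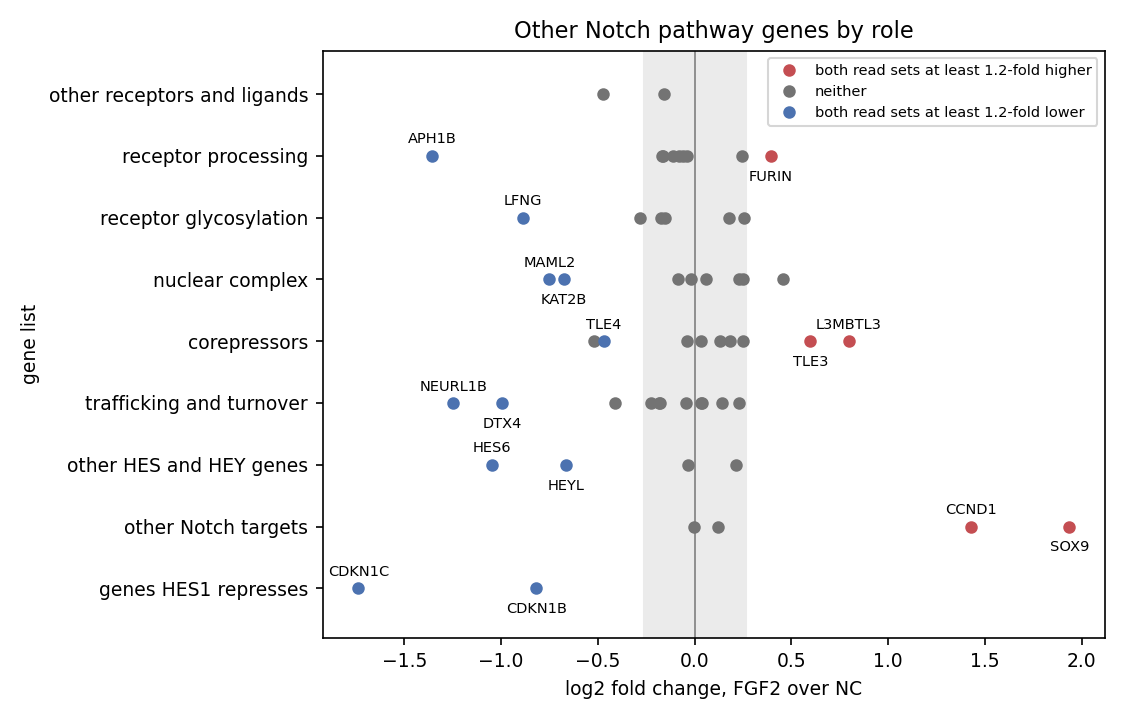
Log2 fold change of FGF2 over NC for the 55 further Notch pathway genes that passed the filter, by role; red and blue points mark the 5 genes called higher and the 11 called lower, and the grey band marks 1.2-fold. SOX9 at 1.93 and CDKN1C at -1.74 are the ends of the range.

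Of 11 measured genes that govern receptor and ligand trafficking or turnover, 2 were lower and 0 higher. NEURL1B, a ubiquitin ligase gene of the Neuralized family that acts on ligands, stood at 1.08 and 0.965 FPKM against 2.18 and 2.43 FPKM (-1.25, -1.51 to -0.99). DTX4, a Deltex ubiquitin ligase gene, stood at 0.764 and 0.680 FPKM against 1.54 and 1.44 FPKM (-0.99, -1.33 to -0.67). Both were lower in each FGF2 library than in each NC library. NUMB and ITCH, which lower receptor levels, stood at 0.04 and 0.14.

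Of 7 other HES and HEY genes 4 were measured, with 2 lower and 0 higher. HES6, a relative known to oppose HES1, stood at 3.20 and 3.01 FPKM against 6.45 and 6.61 FPKM (-1.05, -1.32 to -0.78). The second was HEYL, at 22 counts against 37 in the libraries 2, and its interval of -1.51 to 0.12 reached past 0. HEYL and the corepressor gene L3MBTL3 (0.80, 78 against 47 counts) met the rule at fewer than 50 counts per read set, and both are named after their values were seen. HES3 and HEY2 were at 0 counts in all 4 libraries.

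Of 4 measured genes that lie downstream of Notch in other settings, 2 were higher and 0 lower. SOX9, a transcription factor of gut progenitors, was higher at 20.4 and 21.5 FPKM in FGF2 against 5.06 and 5.97 FPKM in NC (1.93, 1.81 to 2.06). CCND1, which encodes cyclin D1, was also higher at 1.43 (1.39 to 1.47), with 10.3% of its exon sequence shared with a gene on the opposite strand, while MYC and CDKN1A stood at 0.12 and 0.00. Both SOX9 and CCND1 are also known to respond to FGF and ERK signalling, and the cause of their higher levels here was not tested. Among genes that HES1 is known to repress, ATOH1 and NEUROG3 were at 0 counts in all 4 libraries. The cell cycle inhibitor genes CDKN1B and CDKN1C were lower, at -0.82 (-0.94 to -0.70) and -1.74 (-2.23 to -1.29). CDKN1B stood at 11.2 and 11.8 FPKM in FGF2 and 20.3 and 22.0 FPKM in NC, without overlap.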

How the data were processed

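Polyadenylated RNA of 4 AGS libraries was analysed, 2 labelled FGF2 and 2 labelled NC. The authors deposited raw read counts per gene and FPKM values for each library, per the file headers. HISAT2, HTSeq 0.13.5 and GRCh38 come from the submitters' processing notes, which give no annotation release. All 51103 identifiers are in GENCODE v29, and for 99.5% of 13867 genes over 20 counts in NC library 2 the length implied by FPKM equalled the merged exon length there, so coordinates are from that release. The kit is not stranded.

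The design called for a test only if the libraries of a group were separate, which the nesting of library 1 in library 2 did not allow, so a size rule was used. Genes were kept by filterByExpr of edgeR 4.0.16 (15030 genes). Read sets (library 1, and library 2 less library 1) were scaled by TMM, and 0.5 was added to each count. Calls needed both FGF2 sets at least 1.2-fold beyond both NC sets. The rule was also run on simulated counts that held sampling noise only. The real read sets of a group spread more than that, so the error rate of the rule here was not tested. Quasi-likelihood tests of edgeR and DESeq2 1.42.0 (adjusted p under 0.05) were alternatives only, because libraries that share reads understate the spread. The members, lists and rules were chosen with earlier results of these data known. Named were all 10 members, core pathway genes fixed by name, and further pathway genes that met the rule and averaged 50 counts or more per read set; a few others are named as examples, and some listed genes are not reported here. Promoters are from RefSeq (GRCh38.p14).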

Additional observations from a re-analysis of the deposited data

How the results depend on the processing

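NOTCH3 was called lower under 16 of 16 alternatives and HES4 under 15, the exception being the 1.5-fold bound, which left 1 Notch gene lower; JAG1 was called lower under 10 and NOTCH1 higher under 5. The log2 fold changes of NOTCH3 and HES4 ranged from -1.34 to -0.47 and from -0.71 to -0.53. With library 2 less library 1 alone, 1 Notch gene was higher and 4 lower, and 9 and 18 further pathway genes, beside 3735 and 4502 of all 15030 genes, and the median of the 9 Notch genes was -0.17; the cause of that median was not tested. With library 1 alone, 3 Notch genes and 9 pathway genes were higher, beside 24.7% of all genes. The edgeR test on the deposited libraries called 3 Notch genes higher and 3 lower, and 15 and 20 pathway genes, beside 31.1% and 31.3% of all genes. On the disjoint read sets it called 1 and 3, with 9 and 12 pathway genes, beside 16.8% and 14.7%. DESeq2 on the deposited libraries called 1 and 3, with 13 and 15 pathway genes, beside 21.4% and 18.7%. With no filter beyond 1 count DLL1 made 1 higher, beside 10.4%. At 1.5-fold 2 of the 55 pathway genes were higher and 8 lower, beside 3.90% and 7.90% of all genes. Leaving out 1 library gave 0 to 1 higher and 2 to 3 lower Notch genes, 5 to 8 and 12 to 14 pathway genes, beside 16.2% to 17.7% and 21.3% to 23.4% of all genes, and a median of 0.01 to 0.05; leaving out library 1 of a group cannot move a fold change, which rests on library 2. Over all genes, scaling by the total count alone called 1294 higher and 3052 lower, against 1824 and 2443. On FPKM with a pseudocount of 1 it was 1235 and 2537, and at the 1.5-fold bound 586 and 1187.

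The labels do not say that replicate numbers pair the libraries, and deviations of same-numbered read sets correlated at 0.0124 across genes, which are not independent. With a replicate block edgeR called 3 Notch genes higher and 3 lower, and 15 and 20 further pathway genes, the same counts as without it, beside 31.2% of all genes in each direction. Depth limits DLL1 and HEY1.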

Other observations

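HES4 lies on chromosome 1 among 9 protein-coding genes within 100 kb that are in the tables, chosen by position after its value was seen. Of these, the interferon-induced gene ISG15 (1001138 to 1014540), the next protein-coding gene on one side, was also lower, at 18.3 and 19.4 FPKM in FGF2 against 28.1 and 29.7 FPKM in NC (log2 fold change -0.53, -0.69 to -0.36). SAMD11 was lower at -2.90 (-3.33 to -2.52). NOC2L was higher at 0.47 (0.44 to 0.51). PERM1, the next protein-coding gene on the other side, stood at 0.31 (-0.26 to 0.88), and KLHL17, PLEKHN1, AGRN and C1orf159 met neither bound, at -0.20 to 0.25. RNF223 had at most 1 count in any library. The neighbours of HES4 thus lay on both sides of 0.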
